A study of Drosophila melanogaster with 60 samples.

Results

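Neuropeptides are short signalling peptides that are cut out of larger precursor proteins, often amidated at one end, packed into dense-core vesicles and released to act mostly on G protein-coupled receptors. In the fly brain they set feeding, water balance, sleep, daily rhythm, courtship and aggression, and each precursor gene is typically switched on strongly in a small number of neurons. H3K4me3 is a histone mark found at the starts of transcribed genes, and RNA polymerase II (RNAPolII) is the enzyme that transcribes them.

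The 41 neuropeptide genes described here, of 13946 protein-coding genes, were chosen by name, and each is represented by its strongest peak with each antibody, that of highest mean over the 30 libraries of that antibody among the peaks that overlap the gene. The values come from CUT&RUN, an assay that cuts out and sequences the DNA lying next to an antibody-bound protein. The brains were from male Drosophila melanogaster of 5 genotypes, kept alone (single-housed, SH) or in groups (group-housed, GH), with 3 libraries for each genotype, housing and antibody, 60 in all. Libraries were pools of 15 brains for H3K4me3 and 30 brains for RNAPolII. Or47b flies (w+/Y; Or47b2/3; +/+) lacked a receptor for pheromones of other flies, and Or67d flies (w+/Y; +/+; Or67dGAL4/GAL4) lacked the receptor for the male pheromone cVA. The fru flies (w+/Y; +/+; fruLexA/4-40) carried 2 alleles of fruitless, the regulator of male courtship circuits, and the dsx flies (w-/Y; +/+; dsxf00683-d07058/f01649-d09625) carried 2 alleles of doublesex, the regulator of somatic sex. The wild type was Canton-S (CS). The labels used here give no age. Mutants and CS can have other differences of background, in the dsx flies the white allele among them, and these cannot be told apart from the named mutation. In whole brains, fewer cells that use a gene and less signal in each cell cannot be told apart either.

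A level below is the deposited value of a peak, a read count divided by the library's size factor, in which 1 read stood for 0.457 to 1.6 units with H3K4me3 and 0.643 to 1.35 with RNAPolII. H3K4me3 libraries held 2309386 to 9269525 reads in peaks and RNAPolII libraries 3007711 to 6459322. At doublesex, dsx libraries lay below all CS libraries at 3 of 4 H3K4me3 peaks and 12 of 14 RNAPolII peaks, and at the most reduced RNAPolII peak all 6 dsx libraries were at 0. At fruitless, fru libraries lay below all CS libraries at 3 of 14 RNAPolII peaks and at 0 of 10 H3K4me3 peaks. The single RNAPolII peak over Or47b had 178 to 252 in Or47b libraries and 249 to 322 in CS libraries, and no tested peak lay over Or67d. Of the neuron markers, nSyb, brp and Syt1 had H3K4me3 levels of 894, 454 and 451 per kb of peak, and elav and Appl only 24.9 and 26.3 per kb. The glia markers alrm, Gs2 and moody had 38.5, 29.2 and 38.6 per kb, and repo had no H3K4me3 peak but an RNAPolII level of 68.5 per kb, against 90.1 to 178 per kb at the neuron markers. Of the RNAPolII libraries, Or47b GH 3, Or47b SH 3 and Or67d GH 3 stood apart from the rest in earlier results of these data, and some of the values that rest on them are also given without them.

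Fewer than 1 in 2 neuropeptide genes had an H3K4me3 peak, and most had an RNAPolII peak. An H3K4me3 peak lay over 19 of the 41 genes (46.3%), against 8582 of 13946 coding genes (61.5%). An RNAPolII peak lay over 34 (82.9%), against 10749 coding genes (77.1%). All 19 and all 34 passed the minimum mean of 10 that a peak needed to be tested. The class with RNAPolII alone held 18 neuropeptide genes and 27% of coding genes. It held the insulin-like peptide genes Ilp2, Ilp3, Ilp5 and Ilp7, Akh (adipokinetic hormone, which mobilises stored fat and sugar), the circadian transmitter gene Pdf, the feeding peptide gene NPF, and Crz, Dsk, Ms, Orcokinin, AstC, AstCC, CCHa1 and CNMa. The moulting hormone genes CCAP, Eh and Pburs were there as well.

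Peaks of both antibodies lay over 16 neuropeptide genes: AstA, Burs, CCHa2, Capa, Dh31, Dh44, FMRFa, Gpb5, ITP, Lk, Nplp1, Proc, Tk, amn, sNPF and spab. H3K4me3 alone was found over Hug (hugin, which regulates feeding), Mip (myoinhibitory peptide) and natalisin. No peak of either antibody lay over ETH (ecdysis triggering hormone), RYa or SIFa, and Gpa2 has no place on a chromosome arm in the gene table, so no peak could be assigned to it. By role, H3K4me3 peaks lay over 8 of 16 hormones of metabolism and water balance, 10 of 20 neuromodulators of behaviour and 1 of 5 moulting hormones. RNAPolII peaks lay over 14 of 16, 16 of 20 and 4 of 5 genes of the same groups.

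Where an H3K4me3 peak was present it was low. Per kb of peak, the 19 neuropeptide genes had a median level of 33.1, against 320 over the strongest peaks of all coding genes, and 11 of the 19 (57.9%) were below 50 per kb, against 28.9% of coding genes. RNAPolII had a median of 49.2 per kb over the 34 genes against 55.1 per kb over coding genes, and 18 of the 34 (52.9%) were below 50 per kb against 42.4%. These medians are descriptions of the peaks and were not tested.

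**Figure D1:**
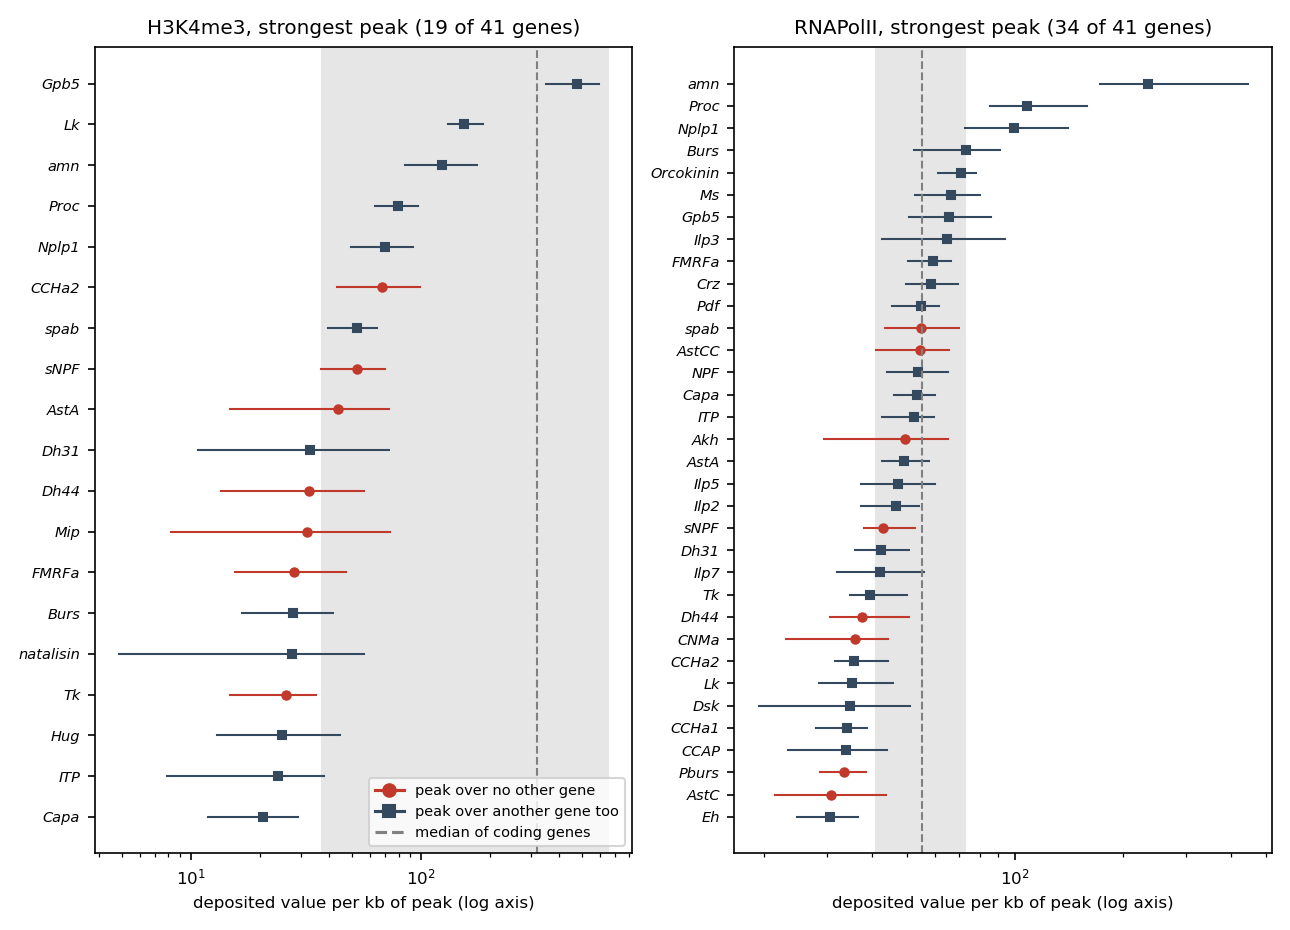
Level per kb of the strongest peak of each neuropeptide gene (log axis), H3K4me3 on the left and RNAPolII on the right. Points are means of 30 libraries (red circles for a peak over no other gene, dark squares for a peak over another gene too), lines run from the lowest to the highest library, and the grey band and dashed line are the quartiles and the median of all coding genes with a peak. With H3K4me3 only Gpb5 lies above the coding gene median of 320, while RNAPolII levels scatter around 55.1.

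The highest H3K4me3 peaks per kb were at genes with a close neighbour under the same peak. Gpb5, a glycoprotein hormone subunit, led with 480 per kb (2L, 23310952 to 23313693, genome build not stated), in a peak that also covered Tim23, a part of the mitochondrial import channel. Lk, leucokinin, which stimulates fluid secretion by the Malpighian tubules, followed with 154 per kb in a peak shared with CG34039. The memory gene amn had 123 per kb in a peak shared with Hers. Proc, the precursor of proctolin, had 79.3 per kb and shared its peak with a long non-coding RNA and a tRNA, and Nplp1 had 69.6 per kb in a peak shared with uzip. Reads of such a peak cannot be divided between the genes it covers.

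At 7 genes the H3K4me3 peak covered no other gene, and there levels per kb ranged from 25.9 at Tk (tachykinin) to 67.7 at CCHa2, a nutrient-responsive hormone that acts on the insulin-producing cells. The other 5 were AstA, Dh44, FMRFa, Mip and sNPF, and the median of the 7 was 32.6 per kb, against 42.8 per kb over the 12 genes with a shared peak. The lowest H3K4me3 levels per kb were 20.6 at Capa, 24.1 at ITP, 24.9 at Hug, 25.9 at Tk and 27.7 at natalisin. Capa encodes peptides that act on the Malpighian tubules, ITP encodes ion transport peptide, a water-retaining hormone, and natalisin encodes a peptide known for its part in mating. These weak peaks held few reads. The natalisin peak held 2 to 60 reads in a library, with a median of 15, that of Mip 3 to 42 and that of ITP 10 to 80, against 698 to 2703 at Gpb5.

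With RNAPolII the order was partly the same. The highest levels per kb were 234 at amn, 108 at Proc, 99.3 at Nplp1, 73 at Burs and 70.9 at Orcokinin, so amn, Proc and Nplp1 were among the 5 highest with both antibodies. Without the 3 libraries that stand apart the same 5 genes were highest in the same order, with amn at 213, Proc at 104 and Nplp1 at 95.3 per kb. Burs encodes a subunit of bursicon, the hormone that hardens and darkens the new cuticle. The lowest were 30.6 at Eh, the eclosion hormone gene, 30.8 at AstC, 33.4 at Pburs, the other bursicon subunit, 34 at CCAP and 34.1 at CCHa1. Over the 16 genes with both peaks, the rank correlation between the levels per kb of the 2 antibodies was 0.197, a description across genes that share libraries and, often, neighbouring genes.

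The insulin-like peptide genes had RNAPolII levels per kb of 64.8 at Ilp3, 47.3 at Ilp5, 46.6 at Ilp2 and 42.1 at Ilp7. The Ilp2 peak also covered Ilp1, CG32052 and Zasp67, and the Ilp3 peak also covered CG32052, so those genes cannot be told apart. The Ilp5 peak also covered CG43897, and the Ilp7 peak Mnt and Parg. Of the 34 RNAPolII peaks, 26 covered another gene as well, and the 8 that did not were those of Akh, AstC, AstCC, CNMa, Dh44, Pburs, sNPF and spab. The Pdf peak covered 7 other coding genes, and the Capa peak also covered trp, a photoreceptor marker.

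By the median, libraries of a group differed more at H3K4me3 peaks than at RNAPolII peaks of these genes. The H3K4me3 peaks were also weaker, with a median level of 43.6 against 293, so the antibodies were not compared at equal levels. The coefficient of variation within groups had a median of 22.2% with H3K4me3, from 7.67% at Proc to 49.1% at Mip. With RNAPolII the median was 9.66%, from 6.12% at CCHa2 to 32.5% at amn. Without the 3 libraries that stand apart the RNAPolII median was 8.61% and amn had 14.9%. The libraries that stand apart were the highest at amn. Its RNAPolII level was 707 in Or47b GH 3, 686 in Or47b SH 3 and 752 in Or67d GH 3, against 292 to 505 in the other 27 libraries. Those 3 libraries also lay above all others at Nplp1, Proc and Ilp7, so at 4 of 34 neuropeptide genes (11.8%), against 9.03% of all 21076 tested peaks.

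Mutants were then compared with CS on 6 libraries against 6, averaged over both housings, to ask whether loss of a pheromone receptor or of a sex regulator goes with another chromatin state at these genes. Changes are on the scale of log2 of the level plus 1, which understates the change of low peaks. Each was tested with limma over all peaks of the antibody, with Benjamini-Hochberg adjusted p-values and a threshold of 0.05. All 4 comparisons share the same CS libraries.

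In Or67d flies H3K4me3 passed the test at 3 of 19 neuropeptide genes, 1 higher and 2 lower, where 30% of all 14513 tested peaks passed. H3K4me3 passed at 0 of 19 in Or47b, where 0.806% of all peaks passed, in fru, where 2.2% passed, and in dsx, where 5.4% passed. At an unadjusted p under 0.05 there were 2 of 19 genes in Or47b (10.5%, against 9.91% of all peaks), 5 in Or67d (26.3%, against 43.4%), 3 in fru (15.8%, against 14.5%) and 3 in dsx (15.8%, against 26.1%). The median log2 change of the 19 genes in Or67d was -0.22, against -0.06 over all tested peaks. It was 0.03 in Or47b, -0.12 in fru and -0.04 in dsx, against 0.00, -0.02 and -0.02 over all peaks. Of all peaks called in Or67d, 2540 were higher and 1810 lower, and with TMM rescaling 1687 were higher and 2209 lower.

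Groups that do not overlap were rare. With H3K4me3, 1 of 76 gene and mutant pairs had mutant and CS libraries that did not overlap, Proc in Or47b, which had 224, 230 and 245 as lowest, median and highest level against 168, 189 and 216 in CS and did not pass (log2 change 0.27, limma adjusted p = 0.284). Of all H3K4me3 peaks, 0.737% were of that kind in Or47b, 6.33% in Or67d, 1.27% in fru and 2.55% in dsx. With RNAPolII there were 3 of 136 pairs, CCHa2 in fru and dsx and Burs in dsx, against 0.74% of all peaks in Or47b, 1.28% in Or67d, 1.75% in fru and 2.72% in dsx.

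Among the 3 was natalisin, which fell in Or67d. Its H3K4me3 peak, shared with cv-c (3R, 14418736 to 14419293), had levels from 2.73 to 16.1 with a median of 12 in Or67d libraries, against 16 to 31.5 with a median of 18.4 in CS libraries. The groups overlapped only narrowly, since a single Or67d library, SH 1, reached above the lowest CS library. The log2 change was -0.86 (SE 0.311, limma adjusted p = 0.0312), with means of 11.4 ± 4.77 and 19.9 ± 5.83 (SD, n = 6 each).

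The ITP peak, shared with CG4622 (2R, 24552255 to 24553773), also fell in Or67d. Its levels were 19.1 to 45.6 with a median of 30.3 in Or67d libraries, against 35.2 to 55.7 with a median of 47.3 in CS libraries. Of the 6 Or67d libraries 3 lay within the range of CS. The log2 change was -0.60 (SE 0.226, limma adjusted p = 0.038). Both calls rested on single libraries. Without CS GH 2, CS SH 2, Or67d GH 2 or Or67d SH 3 neither natalisin nor ITP passed, with adjusted p from 0.0733 to 0.152, and ITP was also lost without CS SH 3 (0.0737) or Or67d SH 2 (0.096). On whole reads the changes were about as large but did not pass, with -0.85 for natalisin and -0.58 for ITP by edgeR (adjusted p = 0.0927 and 0.107) and -0.78 and -0.51 by DESeq2 (0.101 and 0.147). With quantile normalization they were smaller, -0.47 and -0.37 (adjusted p = 0.334 and 0.314).

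Gpb5 rose in Or67d. Its H3K4me3 levels were 1319 to 1638 with a median of 1431 in Or67d libraries, against 962 to 1379 with a median of 1109 in CS libraries. A single CS library, GH 3, reached into the Or67d range. The log2 change was 0.37 (SE 0.0854, limma adjusted p = 0.0016), and this peak also belongs to Tim23. With quantile normalization Gpb5 did not pass (0.12, adjusted p = 0.0642). The other mutants had changes at Gpb5 of 0.22 in Or47b, 0.27 in fru and 0.22 in dsx, none of which passed in the fit reported (adjusted p = 0.324, 0.0721 and 0.104). With the replicate number as a block Gpb5 passed in fru and in dsx (0.22 in dsx, adjusted p = 0.0137). Without CS GH 3 it passed in dsx (0.29, adjusted p = 0.0172).

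The direction of these changes went with the strength of the peaks. In Or67d the strongest 25% of all H3K4me3 peaks had a median log2 change of 0.24 and the weaker 50% one of -0.35, and the 4758 peaks with a mean level of 20 to 60 had -0.27. The gap between strong and weak peaks within a library averaged 5.78 ± 0.19 in Or67d and 5.21 ± 0.265 in CS (log2, SD, n = 6 each). With that gap as a covariate none of the 3 genes passed, and the changes were 0.11 at Gpb5, -0.19 at ITP and -0.45 at natalisin. Some marker levels moved as well. The summed H3K4me3 level of the 5 neuron markers was 4550 to 5033 in Or67d and 3579 to 4744 in CS. That of 3 muscle markers was 71.9 to 96.1 and 103 to 178, and that of 4 photoreceptor markers 78.2 to 98 and 95.7 to 138. The sum of 3 fat body markers was 698 to 852 and 513 to 832, and that of 3 glia markers 81.9 to 130 and 92.6 to 147. The fat body sum was mostly apolpp (mean level 637, in a peak shared with Zyx), against 53.1 at Fbp1 and 21.3 at Yp1. Only apolpp of these 3 passed in Or67d, as higher, while their median log2 change was -0.23. For 3 markers of peptidergic cells the sum was 2159 to 2508 and 1616 to 2233. The part of these markers in the result was not tested. With RNAPolII, Gpb5 had 323 ± 38.4 in Or67d and 302 ± 23.1 in CS, ITP had 325 ± 22.9 in Or67d and 317 ± 20.9 in CS, and neither passed (log2 change 0.09 and 0.03).

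A weaker H3K4me3 peak over AstA, which encodes a peptide that regulates feeding and sleep, also passed in Or67d (3R, 24761254 to 24761778). It had 11.2 ± 5.97 in Or67d and 19.7 ± 8.22 in CS (SD, n = 6 each), a log2 change of -0.82 (SE 0.301, limma adjusted p = 0.0338). The stronger AstA peak had a log2 change of -0.44 in Or67d that did not pass (adjusted p = 0.225). Of the 36 H3K4me3 and 54 RNAPolII peaks that overlap these genes and were tested, no other peak passed beyond the strongest ones named here.

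**Figure D2:**
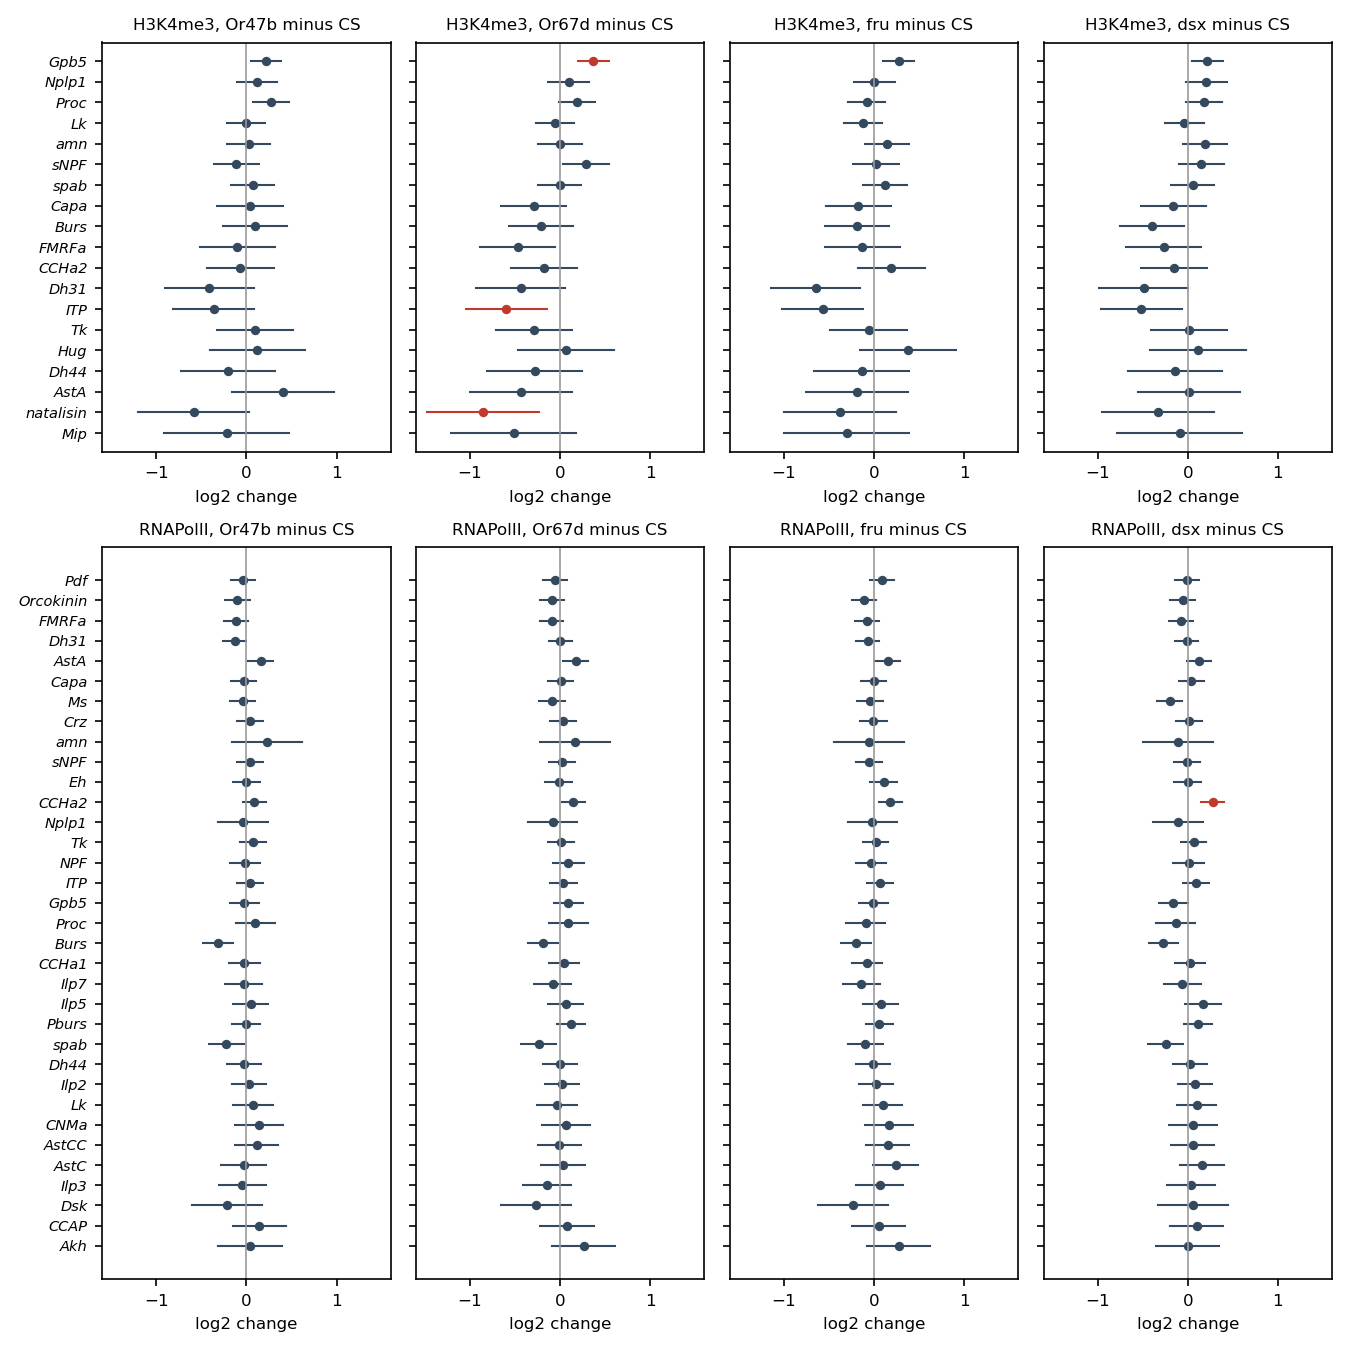
Log2 change of the strongest peak of each neuropeptide gene, mutant minus CS, with 95% confidence intervals, H3K4me3 above and RNAPolII below, genes ordered by mean level. Red marks an adjusted p under 0.05: Gpb5, ITP and natalisin with H3K4me3 in Or67d, and CCHa2 with RNAPolII in dsx. Intervals widen toward the weak peaks.

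With RNAPolII the only neuropeptide gene past the test was CCHa2, which rose in dsx. The share was 1 of 34 genes in dsx, where 1.84% of all 21076 tested peaks passed. RNAPolII passed at 0 of 34 in Or47b, where 0.56% of all peaks passed, in Or67d, where 1.08% passed, and in fru, where 1.04% passed. With RNAPolII an unadjusted p under 0.05 was found for 4 of 34 genes in Or47b (11.8%, against 7.69% of all peaks), 4 in Or67d (11.8%, against 8.68%), 3 in fru (8.82%, against 10.8%) and 4 in dsx (11.8%, against 16%). The median log2 change of the 34 genes lay between -0.01 and 0.02 in the 4 mutants, and over all peaks it was 0.00 to 0.01.

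The RNAPolII peak over CCHa2 (3R, 13390063 to 13400058) also covered CG14374, CG14377 and GILT1. Its levels were 355 to 444 with a median of 382 in dsx libraries, against 316 to 338 with a median of 322 in CS libraries. Every dsx library lay above every CS library. The log2 change was 0.28 (SE 0.0625, limma adjusted p = 0.0124), with means of 393 ± 32.3 and 324 ± 7.49. It was lost without dsx SH 1 (adjusted p = 0.0521) and with edgeR on whole reads (0.0513). The changes in the other mutants were 0.09 in Or47b, 0.15 in Or67d and 0.18 in fru, none past the test, although all fru libraries (346 to 412) lay above the CS libraries. The summed RNAPolII level of the 5 neuron markers was 3735 to 4556 in dsx and 4298 to 5239 in CS. That of the muscle markers was 1437 to 1642 and 1316 to 1542, and that of the glia markers 1086 to 1157 and 1015 to 1257. The fat body markers had 773 to 905 and 762 to 878. The photoreceptor markers had 850 to 1007 and 844 to 1014, without ninaE and ninaC, which had no RNAPolII peak, and the trp peak also covers Capa. For the markers of peptidergic cells the sum was 1834 to 2188 and 1985 to 2245, mostly Phm and amon (mean levels 913 and 838). In dsx dimm rose and passed (log2 change 0.49, limma adjusted p = 0.0206). Phm, amon and Cadps had -0.07, -0.20 and -0.01 and did not pass. The part of these markers in the result was not tested. The H3K4me3 peak over CCHa2, which covers no other gene, had 37.6 ± 6.52 in dsx and 42.7 ± 11.2 in CS and did not pass (log2 change -0.16).

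Burs had the lowest RNAPolII change in Or47b and in dsx without passing. Its levels were 247 to 276 with a median of 266 in dsx libraries, 200 to 317 with a median of 264 in Or47b libraries, and 298 to 348 with a median of 313 in CS libraries. All dsx libraries lay below all CS libraries, while 1 Or47b library lay within the CS range. The log2 changes were -0.27 in dsx (limma adjusted p = 0.0831), -0.31 in Or47b (0.09), -0.19 in Or67d and -0.20 in fru. The peak also covers CG42335 and GABA-B-R2. Burs passed in dsx without the 3 libraries that stand apart (adjusted p = 0.0142) and without Or47b SH 3 alone (0.0483), and in Or47b without Or47b GH 1 (0.0205). With the gap between strong and weak peaks as a covariate it passed in both (-0.34 in dsx, adjusted p = 0.00873, and -0.32 in Or47b, 0.00612), and in dsx it also passed with the compared groups alone (0.0143) and with all peaks of a gene averaged (0.0403). Without the 3 libraries the Or47b change was -0.19 (adjusted p = 0.32).

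The other genes with the largest changes did not pass either. With RNAPolII these were amn in Or47b (0.23), Akh in Or67d (0.26) and fru (0.28), and Dsk, which encodes the satiety peptide drosulfakinin, in Or67d (-0.26) and fru (-0.23). Without the 3 libraries that stand apart Dsk had -0.16 and Akh 0.25 in Or67d. For amn the sign turned without them in Or47b (-0.11, adjusted p = 0.738), and with the gap between strong and weak peaks as a covariate amn passed in Or47b (0.31, adjusted p = 0.0435). With H3K4me3, AstA had 0.40 and natalisin -0.59 in Or47b, Hug 0.37 and Dh31, a diuretic hormone gene, -0.65 in fru, and ITP -0.52 in dsx. At 7 of 19 genes the H3K4me3 change was below 0 in all 4 mutants (Dh31, Dh44, FMRFa, ITP, Lk, Mip and natalisin) and at 3 above 0 (Gpb5, Hug and Nplp1). Over the weaker 50% of all H3K4me3 peaks the median change was below 0 in all 4 as well, -0.15 in Or47b, -0.35 in Or67d, -0.14 in fru and -0.23 in dsx. ITP had -0.36 in Or47b and -0.57 in fru, and Dh31 had -0.41 in Or47b, -0.44 in Or67d and -0.49 in dsx. These comparisons share the CS libraries, and the share of all peaks with 1 sign in all 4 mutants is not given here for either antibody. Whether the counts of genes with 1 sign differ from it was not tested. Among the CS libraries 1 was far above the other 5 at Dh31 (81.5, next 51.8). Chosen after their values were seen, AstA and spab were among the 15 of 34 genes with 1 sign in all 4 mutants with RNAPolII, without passing: AstA had 0.16 in Or47b, 0.17 in Or67d, 0.15 in fru and 0.12 in dsx, and spab -0.22, -0.24, -0.10 and -0.24. Without the 3 libraries AstA had 0.14 in Or47b and 0.16 in Or67d, and spab -0.20 and -0.29.

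How large a change the data allow differed between the antibodies. With RNAPolII all 136 intervals (34 genes in 4 mutants, 95%) lay within 2-fold of CS and 130 within 1.5-fold. With H3K4me3 69 of 76 intervals lay within 2-fold and 44 within 1.5-fold, and the wide ones belonged to weak peaks. These are intervals of whole peaks, and 26 of the 34 RNAPolII peaks and 12 of the H3K4me3 peaks also cover another gene. There they do not bound the change of the neuropeptide gene alone. In Or67d the natalisin interval ran from -1.48 to -0.24.

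**Figure D3:**
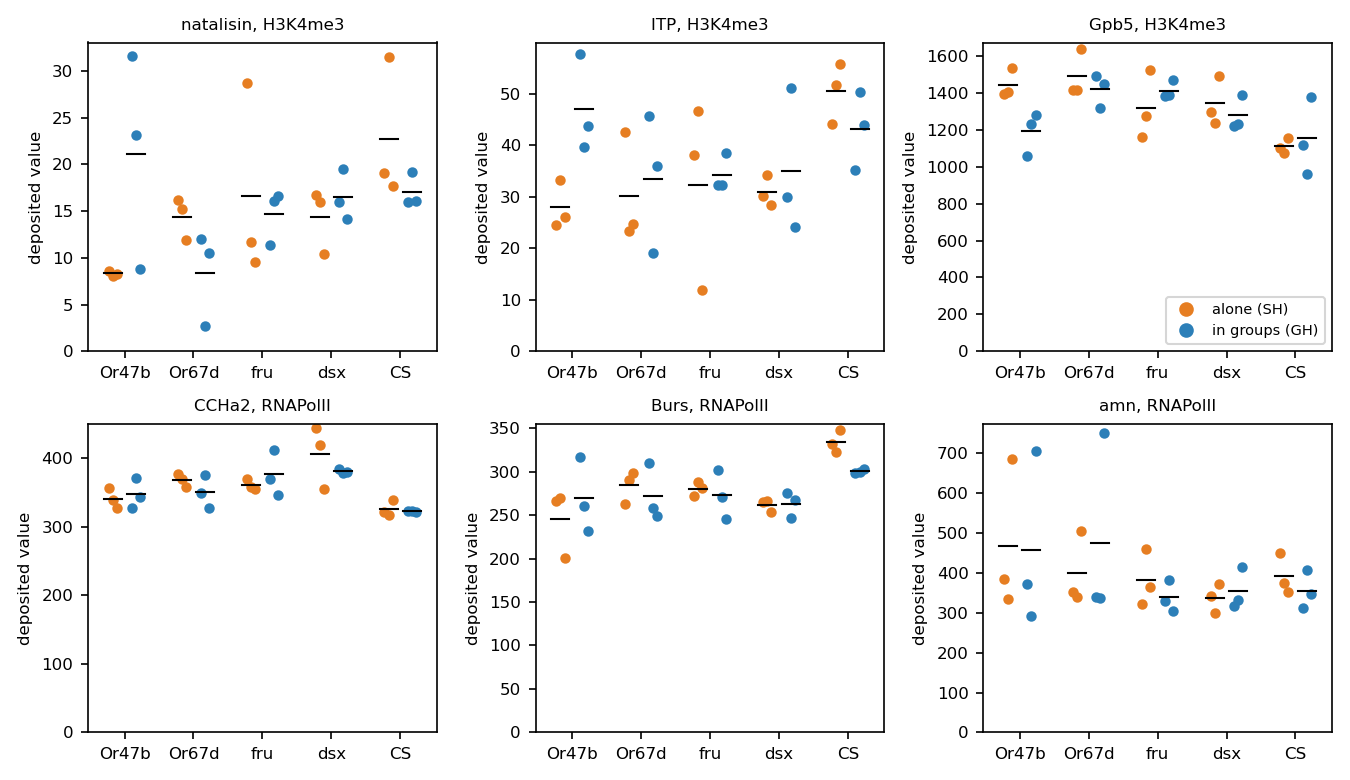
Levels in every library for natalisin, ITP and Gpb5 (H3K4me3, upper row) and CCHa2, Burs and amn (RNAPolII, lower row), by genotype, with flies kept alone in orange and in groups in blue and group means as bars. The dsx libraries of CCHa2 (355 to 444) lie above those of CS (316 to 338), those of Burs (247 to 276) below CS (298 to 348), and amn is high in 3 libraries (686 to 752).

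Housing was compared next, flies kept alone against flies kept in groups, to ask whether social experience goes with another state of these genes. No neuropeptide gene passed in any genotype. The count was 0 of 95 gene and genotype pairs with H3K4me3 and 0 of 170 with RNAPolII by limma, and 9 and 10 of them had an unadjusted p under 0.05. Of all peaks, that share was 26.3% with H3K4me3 in Or47b, where 4 of the 9 pairs lay, and 2.36% to 3.89% in the other genotypes, and it was 3.05% to 4.2% with RNAPolII. Of all peaks, 0.0345% passed with H3K4me3 in Or47b and 0% in each of the other 4 genotypes, and 0% passed with RNAPolII in every genotype. Averaged over the 5 genotypes, 15 libraries against 15, 0 of 19 and 0 of 34 genes passed, where 0% of all peaks passed, and 1 gene with each antibody had an unadjusted p under 0.05. Those were amn with H3K4me3 (log2 change 0.20) and FMRFa with RNAPolII (0.08). For the averaged comparison the intervals of all 34 RNAPolII peaks and 18 of 19 H3K4me3 peaks lay within 1.5-fold, and all 19 within 2-fold. Here too they are intervals of whole peaks, many of which also cover another gene.

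The lowest adjusted p of any housing comparison was that of H3K4me3 at Dh44, a diuretic hormone gene also known for its part in the daily activity rhythm, in Or47b flies. Levels were 13.5, 11.1 and 8.33 in SH libraries, against 26.1, 31.4 and 35 in GH libraries. All SH libraries lay below all GH libraries, and the peak covers no other gene. With H3K4me3, 8 of 95 gene and genotype pairs had SH and GH libraries that did not overlap. The share over all peaks is not given here. The log2 change of Dh44 was -1.43 (SE 0.371) and did not pass (limma adjusted p = 0.0862). It passed when Or47b SH 1 or fru SH 3 was left out of the fit. In the same comparison ITP had 28 ± 4.68 in SH and 47.1 ± 9.42 in GH (SD, n = 3 each; log2 change -0.73), natalisin 8.33 ± 0.262 and 21.1 ± 11.5 (-1.08), and Gpb5 1441 ± 78.1 and 1190.5 ± 116 (0.28). The gap between strong and weak peaks was 5.73 ± 0.28 in these SH libraries and 5.14 ± 0.2 in the GH libraries (log2). With that gap as a covariate no neuropeptide gene passed in this comparison either. The changes in that fit are not given here. In CS the Dh44 peak had 23.4, 26.4 and 22.3 in SH libraries, against 11.2, 25.2 and 23.7 in GH libraries, which overlap. The housing change of Or47b minus that of CS was -1.75 and did not pass (limma adjusted p = 0.411).

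With RNAPolII the largest rise was at Ilp3, an insulin-like peptide gene of the brain's insulin-producing cells, in dsx flies. The Ilp3 peak also covers CG32052. Levels of that peak were 83.9, 105 and 75.1 in SH libraries of dsx, against 63.3, 65.3 and 62 in GH libraries. In CS they were 70.6, 60.1 and 63.3 in SH libraries, against 87.4, 76.9 and 80.4 in GH libraries. All SH libraries were thus above all GH libraries in dsx and below them in CS. With RNAPolII, 21 of 170 gene and genotype pairs had SH and GH libraries that did not overlap. The share over all peaks is not given here. The log2 change was 0.45 in dsx and -0.33 in CS, and the difference between them was 0.78 (SE 0.259, unadjusted p = 0.0051 by limma), which did not pass over all peaks (adjusted p = 0.9995). No neuropeptide gene passed such a test of the housing effect in a mutant against that in CS with either antibody, with 0 of 76 and 0 of 136 pairs by limma and 5 and 4 at an unadjusted p under 0.05, and 0% of all peaks passed in each of these comparisons. The unadjusted share of all peaks was 11.4% for Or47b with H3K4me3, where 4 of the 5 pairs lay, and 2% to 2.97% for the other mutants, and it was 2.76% to 3.86% with RNAPolII.

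**Figure D4:**
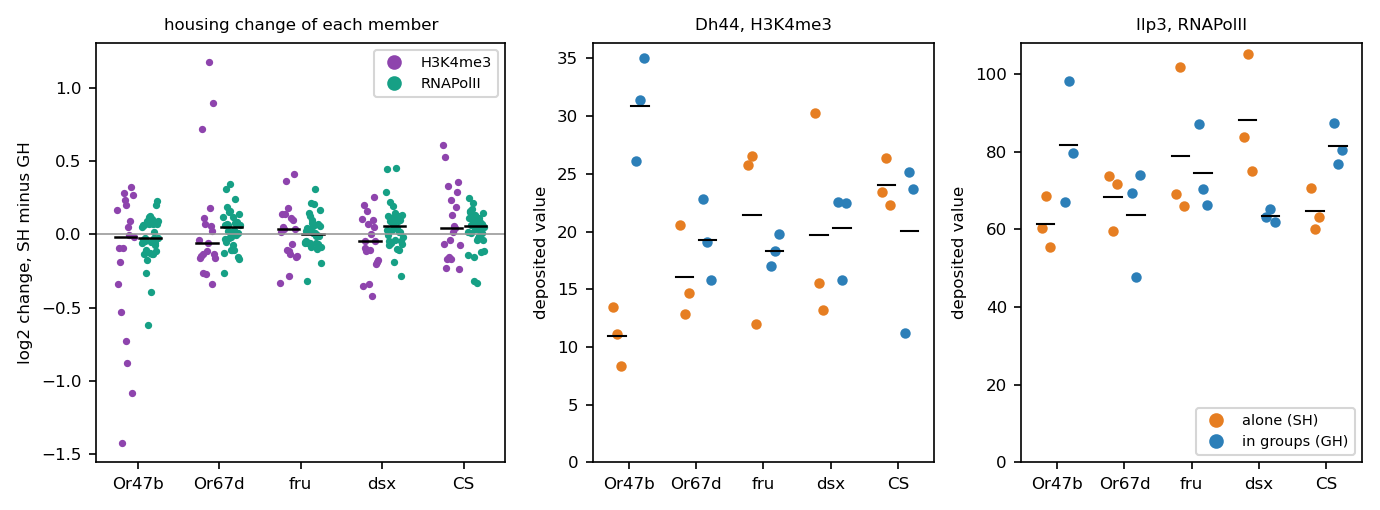
Left, log2 change SH minus GH of each neuropeptide gene in the 5 genotypes, H3K4me3 in purple and RNAPolII in green, with medians as bars. Middle and right, levels in every library for Dh44 (H3K4me3) and Ilp3 (RNAPolII), SH in orange and GH in blue. RNAPolII changes lie between -0.62 and 0.45 and H3K4me3 changes between -1.43 and 1.18, and the medians lie close to 0.

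Genes that process and release neuropeptides are listed beside them. The list held 22 genes, among them amon, the prohormone convertase, svr, a carboxypeptidase, Phm, Pal1 and Pal2, the amidating enzymes, dimm, a transcription factor of peptidergic cells, Cadps and Syt4, which act in vesicle release, and the peptide-degrading neprilysins. An H3K4me3 peak lay over 18 of them, with a median of 328 per kb, against 33.1 per kb over the neuropeptide genes. None lay over 7B2, Phm, isoQC or Nep5. RNAPolII peaks lay over 20, with a median of 83.1 per kb, and none lay over isoQC or Nep5. The difference between the lists was not tested. Within the processing list 3 genes were below 50 per kb with H3K4me3, QC with 29.1 and the neprilysin genes Nep2 and Nep4 with 24.6 and 25.9. Sytbeta had 60.2 and the transcription factor gene dimm 73.3 per kb, and Rab2 was highest with 1457 per kb.

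In Or67d H3K4me3 rose at 8 of these 18 genes and fell at none, where 30% of all 14513 peaks passed, 2540 higher and 1810 lower. Of the 5771 peaks with a mean of at least 50, fitted alone, 2835 were higher and 347 lower. The 8 genes were svr, Fur1, Fur2, Pal1, Pal2, Cadps, Sytalpha and Rab2. The largest change was that of Cadps, with 803 ± 104 in Or67d and 575 ± 156 in CS (SD, n = 6 each; log2 change 0.52, limma adjusted p = 0.000557). These are mostly strong peaks, and strong peaks as a whole were higher in Or67d, as given above. No gene of the list passed with H3K4me3 in Or47b, fru or dsx. With RNAPolII 1 of 20 passed, dimm in dsx, with 107 ± 16.8 in dsx and 75.5 ± 10.2 in CS (log2 change 0.49, limma adjusted p = 0.0206), and none in Or47b, Or67d or fru.

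**Figure D5:**
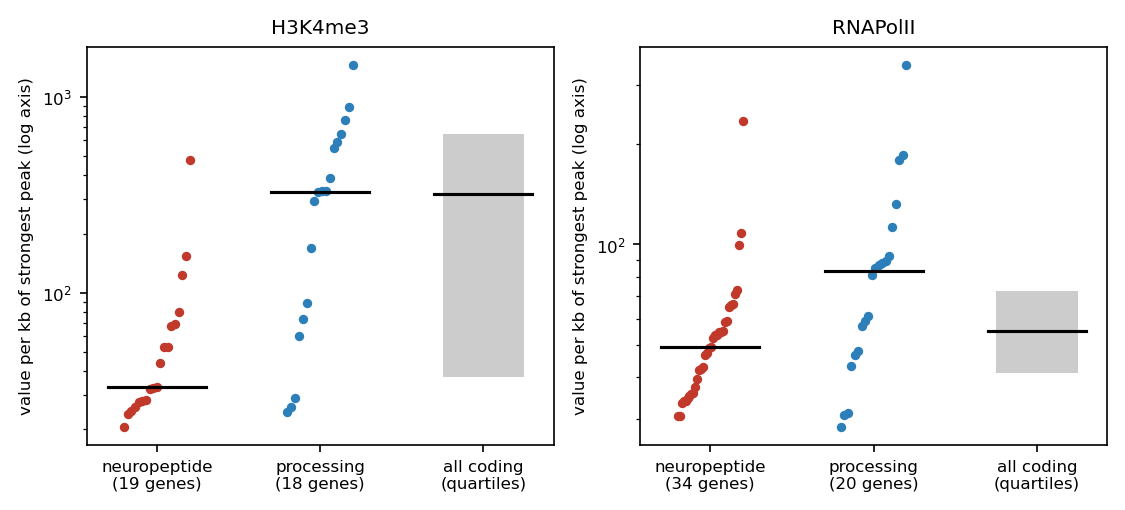
Level per kb of the strongest peak (log axis) for the neuropeptide genes and the processing genes, each point a gene, with medians as black lines, beside the quartiles and median of all coding genes with a peak. With H3K4me3 the medians are 33.1, 328 and 320 per kb, and with RNAPolII 49.2, 83.1 and 55.1.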

How the data were processed

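CUT&RUN libraries of male brains were grouped by genotype and housing from their labels, and columns were joined to samples by library name. Replicate numbers are those of the sample titles. In the deposited tables the CS columns are numbered R3 to R5 where the titles have R1 to R3, and mutant columns carry the title numbers. Checks by number thus cannot show whether CS and mutant libraries came from the same round of preparation. A difference of round between them could not be told apart from genotype. Per the labels, replicates are biological. The submitters' processing notes list ChIPseeker, DESeq2, MACS2, Bowtie2 and Trim Galore and give no versions. The deposited tables hold signal per peak, that is, the authors' read counts over a library size factor, since every value was a whole multiple of 1 read (100% of values, within 0.01 reads). Genome build, read counter and peak merging are not stated in the labels or files. In 6 libraries (H3K4me3: CS GH 2, fru GH 1, fru SH 1, Or47b SH 2; RNAPolII: CS SH 2, Or67d SH 3) the value of 1 read was less sure, and these were left out of tests on reads only. No libraries held identical values.

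Genes were matched to peaks by overlap with gene spans in the RefSeq table (assembly Release 6 plus ISO1 MT), which served for names only; it was used without strand or exons, so where in a gene a peak lies is left out. No sequence is printed. Peaks with a mean of at least 10 were fitted as log2 of the value plus 1 with limma 3.58.1 in R 4.3.3 (10 group means, eBayes with trend), with Benjamini-Hochberg adjustment over all peaks of an antibody within each of 14 comparisons; the scripts were tested on simulated data. Alternatives used edgeR 4.0.16 and DESeq2 1.42.0 on whole reads, other scalings and filters, a replicate block and single libraries left out. The members and lists were chosen with earlier results of these data known. Named with values were genes that passed, the 5 highest and 5 lowest per kb with each antibody, and the largest rise and fall in each mutant; Dh44 and Ilp3, the weaker AstA peak, and AstA and spab with RNAPolII were added after their values were seen.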

Additional observations from a re-analysis of the deposited data

Results flagged for a closer look

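A library far from the other 5 of its genotype was found at 3 of the 28 sets of 6 libraries checked, and chance gives about 1 in 20. RNAPolII at CCHa2 was 338 in the highest CS library (SH 3), against 323 in the next. H3K4me3 at Dh31 was 81.5 in the highest CS library, against 51.8 in the next. H3K4me3 at natalisin was 31.5 in the highest CS library (SH 2), against 19.1 in the next, and without that library natalisin did not pass in Or67d (log2 change -0.73, limma adjusted p = 0.102).

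RNAPolII at Ilp3, in a peak shared with CG32052, changed with housing in opposite directions. The change was 0.45 in dsx, where every SH library was above every GH library. It was -0.33 in CS, where every SH library was below every GH library. This gene was seen among the 17 gene and antibody pairs with an unadjusted housing p under 0.05. The test of the difference did not pass over all peaks (limma adjusted p = 0.9995). With RNAPolII, 21 of 170 gene and genotype pairs had SH and GH libraries that did not overlap.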

How the results depend on the processing

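H3K4me3 calls in Or67d (3 of 19 in the fit reported) were 0 with quantile normalization or with the gap between strong and weak peaks as a covariate. They were 1 with edgeR and 1 with DESeq2. When single libraries were left out they were 1 to 5 (1 without CS GH 2, CS SH 2, Or67d GH 2 or Or67d SH 3, 5 without CS GH 3). In the fit reported 0 of the 7 genes whose peak covers no other gene passed in Or67d. Of those 7, sNPF passed there with a minimum mean of 50, with the replicate block, and without CS GH 3, CS SH 3 or Or67d SH 1. FMRFa passed with the block and without CS GH 3, and AstA and Tk in Or67d with all peaks of a gene averaged. Of all 14513 peaks, 4350 were called there in the fit reported, 183 with the covariate, 1096 with quantile normalization, 1576 with edgeR and, of 12262 with an adjusted p, 2017 with DESeq2. H3K4me3 calls in fru (0) were 1, Gpb5, with a minimum mean of 50, quantile normalization, TMM or the covariate, and 0 to 1 when single libraries were left out. In dsx (0) and for housing within genotypes (0) they were 0 to 1 with libraries left out, and for housing 1, Dh44, with the compared groups alone. The difference of housing effects (0) was 1 with DESeq2. RNAPolII calls in Or47b (0) were 2 with the covariate and 0 to 1 with libraries left out, and in Or67d (0) 1 with the covariate. In dsx (1) they were 3 with the covariate, 2 without the 3 libraries that stand apart, with the compared groups alone or with all peaks of a gene averaged, 0 with edgeR or over the 8 genes whose peak covers no other gene, and 0 to 2 with libraries left out (0 without dsx SH 1, 2 without Or47b SH 3). The change of amn in Or47b reversed to -0.11 without the 3 libraries. The causes were not tested. With the replicate number as a block, H3K4me3 calls were 5 in Or67d, 1 in fru, 1 in dsx and 2 for housing, and no RNAPolII count changed. Of all H3K4me3 peaks the block called 5671 in Or67d, 702 in fru, 2437 in dsx and 262 in Or47b. The fit reported called 4350, 320, 784 and 117. Deviations of mutant and CS libraries with the same title number correlated by -0.0976 to 0.313 with H3K4me3 and -0.234 to 0.118 with RNAPolII. Of 24 such pairs, 10 exceeded 0.1 with H3K4me3 and 1 with RNAPolII, and in no mutant did every pair. Since the CS columns carry other numbers than the titles, this check cannot show whether mutant and CS libraries shared a round of preparation. Some values went with the replicate number. Replicate 3 had the largest gap between strong and weak H3K4me3 peaks in 9 of 10 groups, and Gpb5 passed in dsx with the block (0.22, limma adjusted p = 0.0137). Same-numbered SH and GH libraries of fru correlated by 0.125 to 0.317 with H3K4me3, which pairs that comparison, where the block gave no call either. Every other count of calls stayed as reported or within 1.5 times. The peak over a gene's start was not used because the gene table was used without strand. The natalisin peak held as few as 2 reads in a library, and that of Gpb5 at least 698.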
